A study of Mus musculus with 8 samples.

Results

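The genes of the constitutive proteasome were followed in TA muscles of dystrophic mdx5cv mice and of WT mice. They were the rows of the gene table whose symbol starts with Psm, a letter from a to f and a digit, without the immunoproteasome subunits Psmb8, Psmb9 and Psmb10 and without pseudogenes. The rule reads names only and kept 43 of 55401 genes, and it was proposed with earlier results of these data known. The pattern matched 51 names, of which 3 were immunoproteasome genes and 5 were pseudogenes, with at most 2 reads in any muscle. By their known roles, 16 of the 43 genes encode the core particle, 17 the regulatory particle, and 10 other proteins, which are 3 assembly chaperones of the base, 6 alternative activators or inhibitors and Psmc3ip. Psmc3ip, a meiotic recombination factor, was matched by its name only and is not a proteasome subunit. Psma8, the alpha subunit of testis, and Psmb11, the beta subunit of thymus, did not reach a mean normalized count of 10, which left 41 genes to test.

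Bulk RNA-seq was performed on whole TA muscles of 4 WT and 4 mdx5cv samples, all from male mice aged 6 months. The WT mice were C57/Bl6, and the mdx5cv mice carried a mutation of Dmd, the dystrophin gene, on the B6 background. The mutation is present in every cell of the animal, and no treatment is labelled. The labels do not say that each muscle came from a separate mouse or litter, so p-values measure the spread between these samples.

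The proteasome degrades proteins that carry ubiquitin chains. Its barrel-shaped core is built from outer rings of alpha subunits, which gate the entrance, and inner rings of beta subunits, of which Psmb5, Psmb6 and Psmb7 hold the active sites. The regulatory particle caps the core, where its base of ATPases unfolds the substrate and its lid removes the ubiquitin. In skeletal muscle the ubiquitin-proteasome system is the main route for breakdown of contractile proteins during atrophy, and inflammatory signals exchange the catalytic subunits for the immunoproteasome forms.

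The promoters of 5 members are shown because their genes mark the range of the results. Psma4 had the largest fall of the core, Psmd6 had the largest fall of the regulatory particle, Psmb3 was a beta subunit that fell, Psmb5 was the catalytic subunit that was not called, and Psmd11 was higher in every mdx5cv muscle than in any WT muscle. Each sequence is the RefSeq window from 250 bases before to 50 bases after the start of the gene on GRCm38.p6, read 5′ to 3′ on the strand of the gene. Capitals mark any match, on either strand, to the antioxidant response element core TGACNNNGC, to CCAAT, to the GC box GGGCGG or to CACGTG.
Psma4 (chr9:54950609-54950908, plus strand): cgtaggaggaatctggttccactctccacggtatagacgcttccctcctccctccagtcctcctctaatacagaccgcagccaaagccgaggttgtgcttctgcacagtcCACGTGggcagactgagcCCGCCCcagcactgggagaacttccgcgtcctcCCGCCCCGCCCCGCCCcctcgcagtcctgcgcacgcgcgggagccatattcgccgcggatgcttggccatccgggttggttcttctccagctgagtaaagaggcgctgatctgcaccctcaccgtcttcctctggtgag
Psmb3 (chr11:97703184-97703483, plus strand): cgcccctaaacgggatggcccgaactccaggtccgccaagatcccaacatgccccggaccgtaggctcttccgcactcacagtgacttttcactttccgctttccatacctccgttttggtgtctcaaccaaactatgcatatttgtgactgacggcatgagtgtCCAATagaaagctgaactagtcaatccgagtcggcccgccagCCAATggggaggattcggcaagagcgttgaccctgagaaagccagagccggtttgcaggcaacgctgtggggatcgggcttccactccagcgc
Psmd6 (chr14:14120896-14121195, minus strand): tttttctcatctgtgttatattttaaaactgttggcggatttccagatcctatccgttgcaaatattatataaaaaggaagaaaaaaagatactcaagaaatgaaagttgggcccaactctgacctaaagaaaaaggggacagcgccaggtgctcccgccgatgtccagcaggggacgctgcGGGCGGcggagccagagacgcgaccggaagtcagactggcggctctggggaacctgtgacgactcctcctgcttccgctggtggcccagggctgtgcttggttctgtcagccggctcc
Psmb5 (chr14:54617946-54618245, minus strand): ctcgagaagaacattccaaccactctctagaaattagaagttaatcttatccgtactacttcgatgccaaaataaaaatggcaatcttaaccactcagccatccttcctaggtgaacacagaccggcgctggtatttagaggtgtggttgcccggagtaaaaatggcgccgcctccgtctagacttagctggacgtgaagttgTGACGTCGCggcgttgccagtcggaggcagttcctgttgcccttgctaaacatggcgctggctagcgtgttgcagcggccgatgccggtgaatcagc
Psmd11 (chr11:80428365-80428664, plus strand): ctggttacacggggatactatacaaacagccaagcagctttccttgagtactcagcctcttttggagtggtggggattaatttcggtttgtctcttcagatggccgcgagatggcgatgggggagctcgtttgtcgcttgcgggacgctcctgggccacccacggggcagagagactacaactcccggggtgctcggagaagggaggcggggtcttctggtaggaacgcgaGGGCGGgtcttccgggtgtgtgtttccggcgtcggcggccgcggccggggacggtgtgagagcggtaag

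Of the 43 members, 36 had a promoter in this table of 27025 genes. The antioxidant response element core, the site of the NRF factors, was in 16.7% of member promoters and in 14.0% of all promoters. The CCAAT box was in 38.9% of member promoters and in 41.1% of all promoters, and it was in 7 of the 12 core particle promoters and in 4 of the 14 of the regulatory particle. The GC box was in 58.3% of member promoters and 38.2% of all promoters, with 5 of 12 in the core and 10 of 14 in the regulatory particle. The CACGTG match was in 8.33% of member promoters and 8.09% of all promoters. In the windows shown, the promoter of Psmb3 held CCAAT at 85 and 43 bases before the start and the promoter of Psma4 held 4 GC boxes, of which the last 3 run into each other. The promoter of Psmb5 held the antioxidant response element core 47 bases before the start. A match is a description of the letters in these windows and not a binding site.

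The libraries held 13862559 to 14921057 reads in WT muscles and 13175524 to 14502624 in mdx5cv muscles. The reads of each muscle had been divided by a size factor, and these normalized counts are the level of a gene in the text below. A tested core subunit had 268 to 1513 reads in a muscle and a regulatory subunit 174 to 2085. Dmd itself had 6169 to 8155 normalized counts in WT and 3461 to 4400 in mdx5cv muscles, a log2 fold change of -0.81 (limma, adjusted p = 0.000177). This sum over the gene does not show the mutation. Genes of the muscle fiber, such as the actin gene Acta1 and the fast myosin gene Myh4, were abundant in all samples.

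WT replicate 2 stood apart from the other WT muscles across the members. It was above the range of the other 3 WT muscles for 21 of 41 genes and below it for 13. Next came WT replicate 4, above for 11 and below for 15, and mdx5cv replicate 4, above for 5 and below for 20 within its group. In the core WT replicate 2 was above for 10 genes and below for 3. In the regulatory particle it was above for 6 and below for 9. Its differences from the mean of the other 3 WT muscles had an SD of 0.501 over the members on the log2 scale, against 0.102 to 0.328 for the other libraries within their groups. Over all genes tested the same SD was 0.458 in this library and 0.322 to 0.459 in the others.

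With the authors' size factors, most transcripts of the core particle were lower in mdx5cv than in WT muscles, and those of the regulatory particle were divided. Of the 41 members tested, 19 fell, 0 rose and 22 were not called by limma at an adjusted p under 0.05, beside 20.1% of all 13677 genes called lower and 20.9% called higher. The core accounted for 11 of these falls, out of 14 genes, and the regulatory particle for 6 out of 17. The median log2 fold change, mdx5cv minus WT, was -0.45 in the core, -0.17 in the regulatory particle and 0.00 over all genes tested. No change reached a log2 fold change of 1 in either direction, whereas 13.6% of all genes were called with a change of that size. In 19 members every mdx5cv muscle was below every WT muscle, beside 19.8% of all genes, and in 1 member, Psmd11, every mdx5cv muscle was above, beside 20.3% of all genes. In whole muscle, fewer cells of a type and less RNA per cell cannot be told apart.

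**Figure D1:**
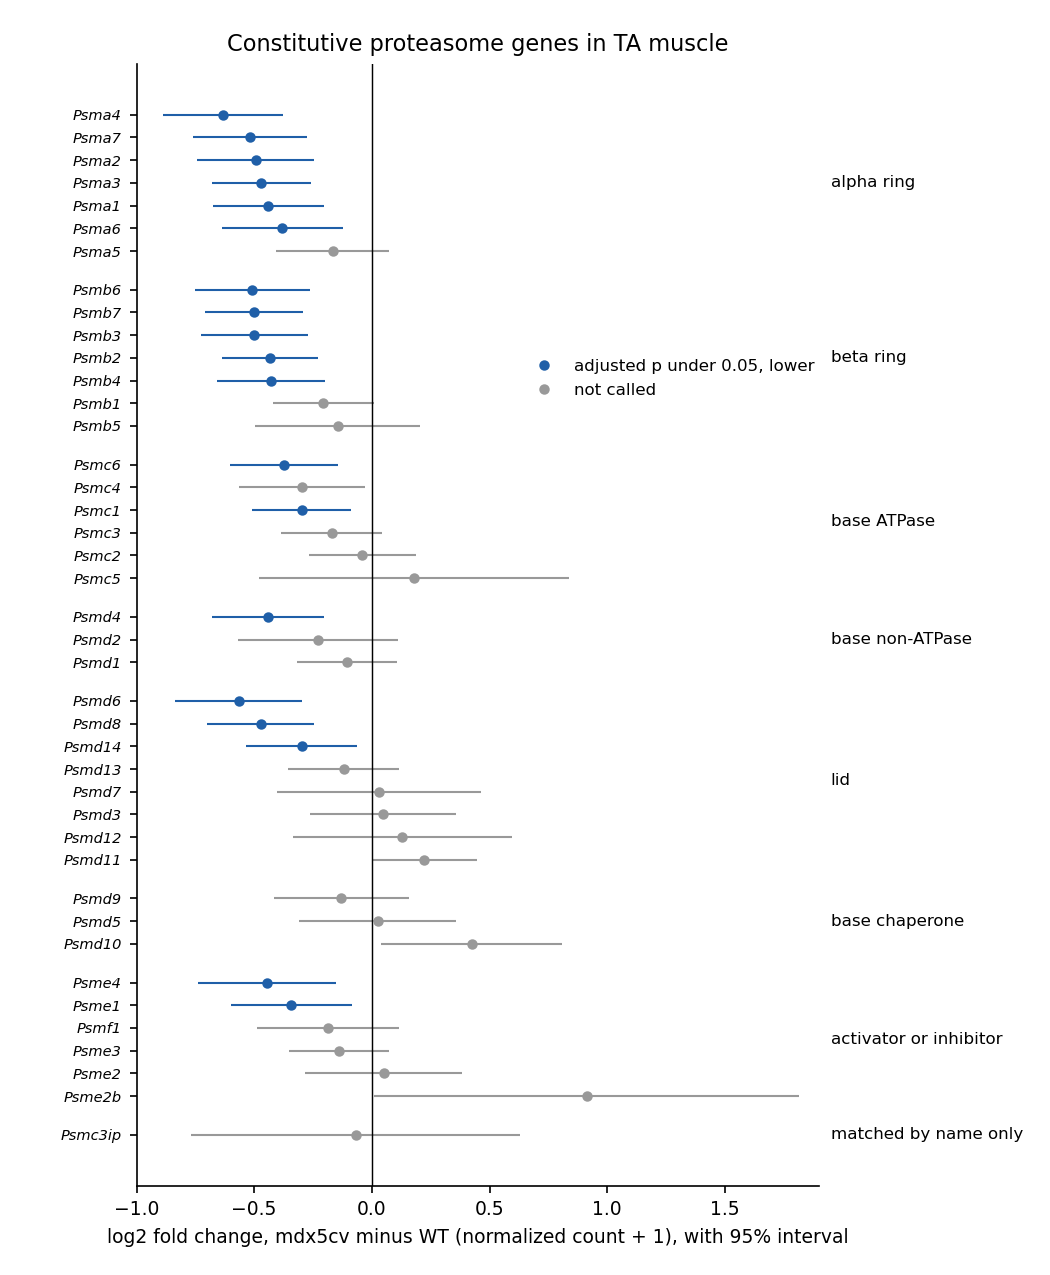
Log2 fold change of each tested gene (mdx5cv minus WT, limma on log2(normalized count + 1), n = 4 per group) with its 95% interval, ordered by role and size. All 14 core genes lie left of 0 and 11 are called (blue), whereas 12 of 17 regulatory particle genes lie left of 0 and 6 are called, and with equal totals 0 genes of either particle are called lower.

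Without WT replicate 2, 19 members were called lower, 18 of them shared with the full set, and 11 of these 19 were core genes and 7 were regulatory. The only member called higher without it was Psme2b. In this fit 2578 of all 13677 genes were called lower and 2744 higher.

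**Figure D2:**
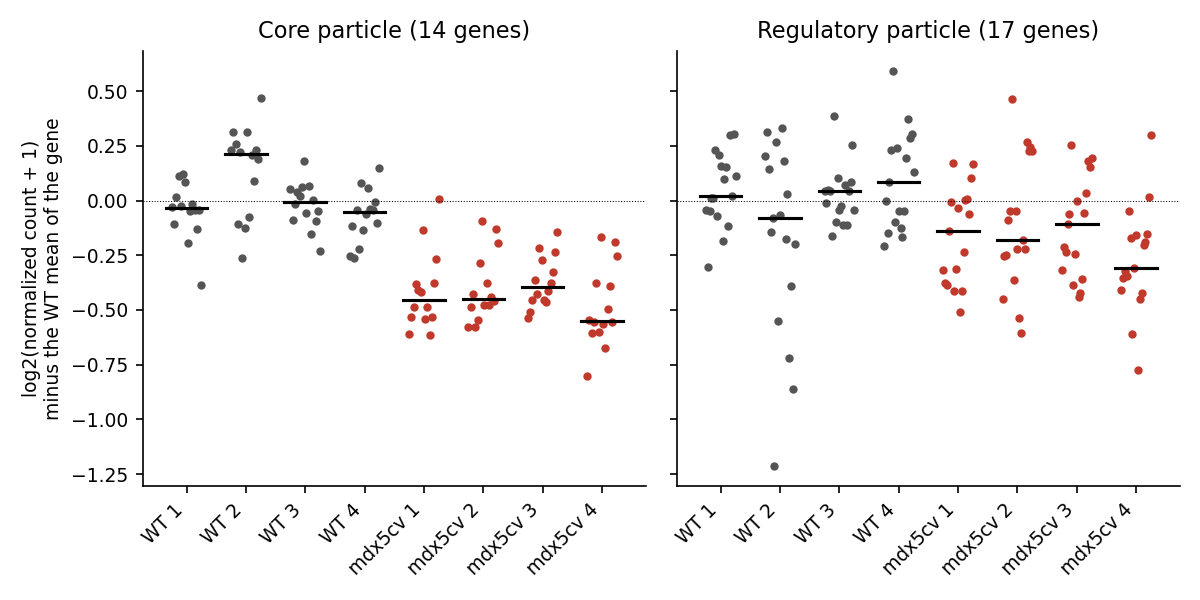
Each point is 1 gene in 1 muscle, as log2(normalized count + 1) minus the WT mean of that gene, with core genes on the left and regulatory particle genes on the right, and the bar is the median of the muscle. Core medians lie between -0.05 and 0.21 in WT and between -0.55 and -0.39 in mdx5cv muscles, and WT replicate 2 has the widest spread in the regulatory panel.

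These calls depended on how libraries were scaled. With all libraries scaled to equal totals, the median of all genes moved to 0.36, 0 members were called lower and 4 were called higher, which were Psmd3, Psmd10, Psmd11 and Psme2b. In that setting 5444 of all genes were called higher and 820 lower. Relative to the median of all genes, the core was at -0.46 with the authors' factors and at -0.45 with equal totals, and the regulatory particle was at -0.17 with both. Reads of mitochondrial genes were 30.0% to 38.7% of a WT library and 25.3% to 32.1% of an mdx5cv library. With totals set without these reads, the median of all genes was 0.21, and Psma4, Psmb7 and Psmd6 were called lower while Psmd10 and Psmd11 were called higher. Of all 13677 genes, 4137 were called higher and 1398 lower with these totals.

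Transcripts of both particles were short, and those of the core were the shorter. The longest transcript had a median of 1220 bases in the core and 1983 in the regulatory particle, against 3372 bases over all genes tested. The median GC content was 49.2% in the core and over all genes, and 49.7% in the regulatory particle. A loess correction of each library for GC content and length was chosen after the data were seen. After it, 6 core genes were called lower in place of 11 and the core median was -0.25. The regulatory genes called lower were then Psmc6, Psmd4, Psmd6 and Psmd8. Relative to the median of all genes, the core was at -0.25 and the regulatory particle at -0.13, against -0.46 and -0.17 before the correction. The members called lower were then 12, beside 19.6% of all genes, and the calls of Psma1, Psma6, Psmb2, Psmb4, Psmb6, Psmc1 and Psmd14 were lost. Psmd10, Psmd11 and Psme2b were called higher, beside 19.9% of all genes.

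**Figure D3:**
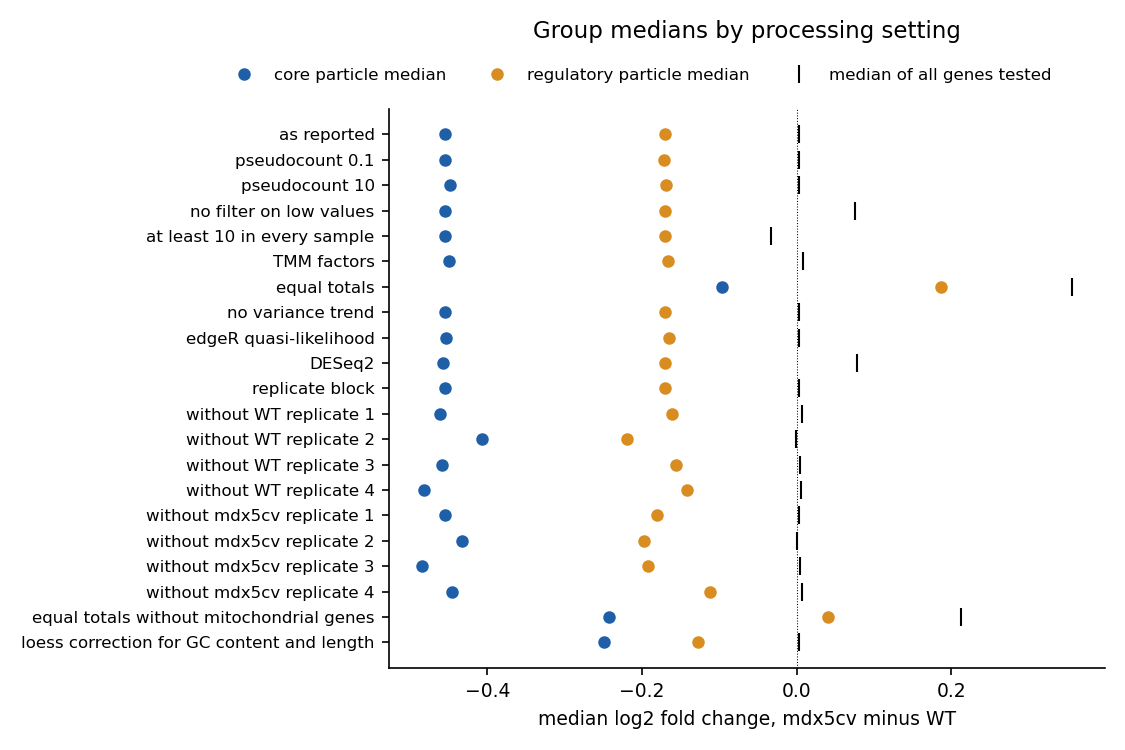
Median log2 fold change (mdx5cv minus WT) of the 14 core genes (blue) and 17 regulatory particle genes (orange) under each setting, with the median of all genes tested as a black tick. Equal totals move all medians to the right, the ticks to 0.36, and the core stays left of the tick in every setting shown.

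The alpha ring, which forms the gate of the core, had 6 of 7 tested genes called lower, beside 20.1% of all genes. Psma4, at chr9:54950790-54958030 on mm10, had the largest fall, with normalized counts of 686, 824, 726 and 588 in the WT muscles and 459, 469.8, 483 and 401 in the mdx5cv muscles. All mdx5cv values lay below all WT values, and the level dropped by 35.8%. The means were 706 ± 97.7 and 453 ± 36.0 (SD, n = 4), with a log2 fold change of -0.63 (SE 0.12, limma, adjusted p = 0.00094).

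Psma7 had 641, 858, 648 and 636 normalized counts in WT and 477, 491, 484 and 472 in mdx5cv muscles. The mdx5cv muscles were close to each other, and WT replicate 2 was above the remaining WT muscles. The log2 fold change of Psma7 was -0.52 (SE 0.11, limma, adjusted p = 0.00265). The structural alpha subunits Psma2, Psma3 and Psma1 fell by 0.49, 0.47 and 0.44 on the log2 scale, and none of these groups overlapped. Psma6 fell by 0.38 (limma, adjusted p = 0.0222), but WT replicate 2, at 501 normalized counts, lay below mdx5cv replicate 3, at 517. The call of Psma6 was lost in 4 of 8 fits that left out a muscle, without a variance trend and after the loess correction. Psma5 was not called, with a log2 fold change of -0.17 (95% interval -0.41 to 0.07).

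Among the beta subunits, 5 of 7 were called lower, beside 20.1% of all genes, and the catalytic subunits differed from each other in their values. Psmb6, which carries the caspase-like activity, had 943, 1340.4, 1036 and 1034 normalized counts in WT and 741, 774, 788 and 730.4 in mdx5cv muscles. Every mdx5cv muscle was below every WT muscle, with means of 1088 ± 174 and 758 ± 27.0 (SD, n = 4), and the log2 fold change was -0.51 (SE 0.11, limma, adjusted p = 0.00315). This call was lost after the loess correction and with both settings of equal totals. Psmb7, which carries the trypsin-like activity, had 1488, 1461, 1613 and 1603 normalized counts in WT and 1098, 1186, 1118 and 964 in mdx5cv muscles. Again the groups did not overlap, and Psmb7 fell by 0.50 on the log2 scale (SE 0.10, limma, adjusted p = 0.00128), a call that was lost with equal totals and kept after the loess correction. Exons of Psmb7 overlap those of Nek6 on the opposite strand over 405 bases, and Nek6 had a mean of 132.8 normalized counts.

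Psmb5, which carries the chymotrypsin-like activity, was not called. Its normalized counts were 308, 557, 343 and 446 in WT and 405, 352, 365 and 338 in mdx5cv muscles. The mdx5cv values lay inside the WT range, which was wide, and the log2 fold change was -0.14 (95% interval -0.50 to 0.21, limma, adjusted p = 0.506). This interval includes falls as large as that of Psmb4. Without WT replicate 2, the highest WT muscle, the change of Psmb5 was 0.01 (limma, adjusted p = 0.954). The difference between the changes of Psmb5 and of the other catalytic subunits was not tested.

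The structural beta subunits Psmb3, Psmb2 and Psmb4 fell by 0.50, 0.43 and 0.43 on the log2 scale (limma, adjusted p = 0.00217, 0.00273 and 0.006). Psmb1 had 662, 779, 660.1 and 635 normalized counts in WT and 566, 624, 579 and 597 in mdx5cv muscles. The groups did not overlap, yet the change of -0.21 was not called (95% interval -0.42 to 0.01, limma, adjusted p = 0.113). The germline and thymus forms stayed at the limit of detection. Psma8 had at most 3.29 normalized counts and Psmb11 at most 2.40 in any muscle.

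**Figure D4:**
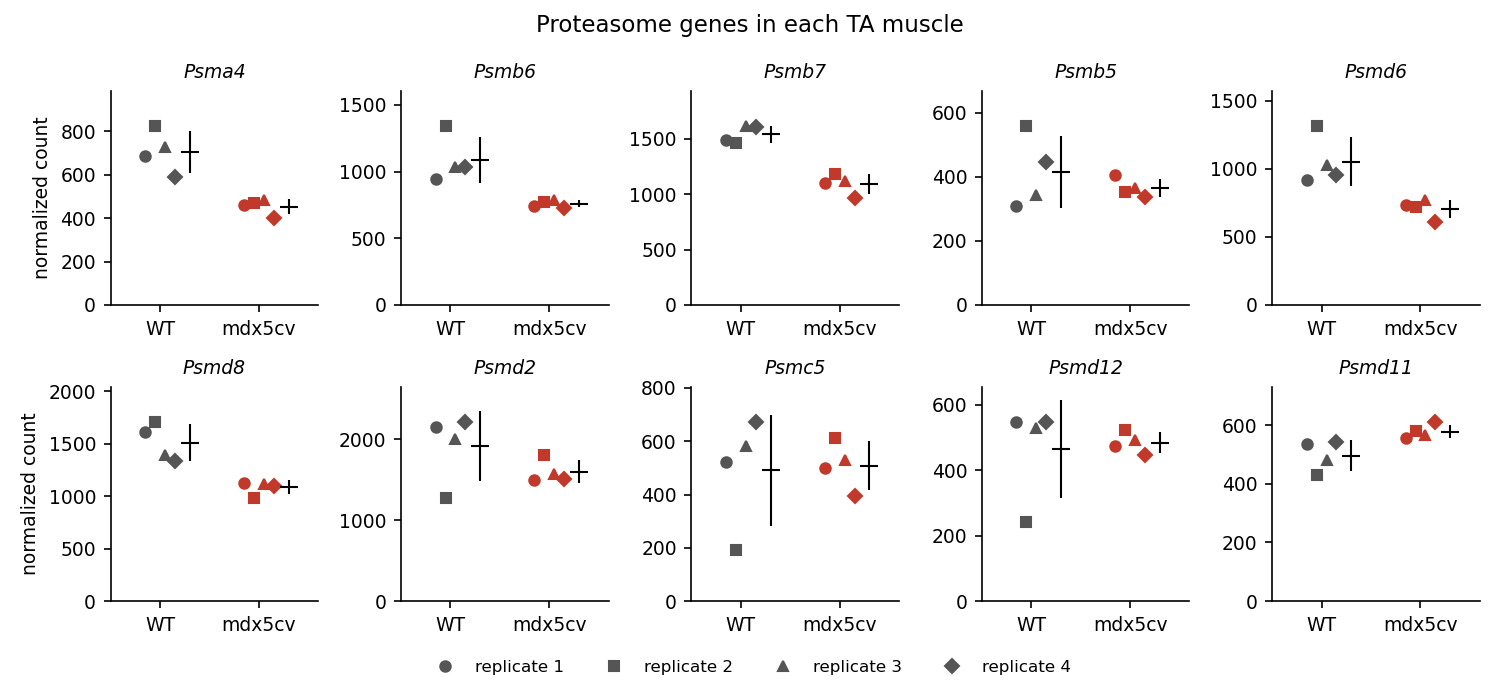
Normalized counts of 10 members in each muscle (WT gray, mdx5cv red, marker shape by replicate number, which does not pair the muscles), with the mean and SD of each group (n = 4) beside them. The groups are apart for Psma4, Psmb6, Psmb7, Psmd6, Psmd8 and Psmd11, and WT replicate 2 lies below the other WT muscles for Psmd2, Psmc5 and Psmd12.

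In the base of the regulatory particle, 2 of the 6 ATPases were called lower, beside 20.1% of all genes. These ATPases form the ring that unfolds substrates. Psmc6 had 894, 1061, 949.8 and 797 normalized counts in WT and 739, 673, 739 and 692 in mdx5cv muscles, with no overlap of the groups. It fell by 0.37 on the log2 scale (SE 0.11, limma, adjusted p = 0.0126), and Psmc1 fell by 0.30 (SE 0.10, limma, adjusted p = 0.0266). The call of Psmc1 was lost in 2 of 8 fits that left out a muscle, without a variance trend and after the loess correction. The changes of Psmc4, Psmc3 and Psmc2 were -0.30, -0.17 and -0.04, with 95% intervals of -0.57 to -0.03, -0.38 to 0.04 and -0.27 to 0.19, and none was called. Psmc5 had 521, 191, 580.5 and 671 normalized counts in WT and 499, 613, 529 and 394 in mdx5cv muscles. WT replicate 2 was far below the other 3 WT muscles, so the change of 0.18 had a 95% interval of -0.48 to 0.84.

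The non-ATPase subunits of the base hold ubiquitin receptors and docking sites. Psmd4, a ubiquitin receptor, had 1005, 1272, 986 and 987 normalized counts in WT and 793, 821, 809 and 693 in mdx5cv muscles. The groups did not overlap, and Psmd4 fell by 0.44 on the log2 scale (SE 0.11, limma, adjusted p = 0.00633).

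Psmd2, the docking subunit for ubiquitin-like domains, had 2156, 1276, 2009 and 2209 normalized counts in WT and 1503, 1808, 1576 and 1510.3 in mdx5cv muscles. WT replicate 2 was the lowest of all muscles, the remaining WT muscles were above all mdx5cv muscles, and the change of -0.23 was not called (95% interval -0.57 to 0.11). Without WT replicate 2 the change of Psmd2 was -0.41 and was called (limma, adjusted p = 0.00615, with 0.00615 to 0.939 over all alternatives). Psmd1, a large scaffold subunit, had 1314, 1123, 1143 and 1138 normalized counts in WT and 1148, 1008, 1173 and 1055 in mdx5cv muscles, and these ranges overlapped (log2 fold change -0.11, 95% interval -0.32 to 0.11).

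The lid had 3 of 8 genes called lower, beside 20.1% of all genes. Its members covered the widest range of changes of the named parts of the core and regulatory particle. Psmd6, at chr14:14112174-14120984, had 917, 1313, 1025 and 954 normalized counts in WT and 731, 717, 768 and 609 in mdx5cv muscles. The groups were apart, with means of 1052 ± 179 and 706 ± 68.4 (SD, n = 4) and a log2 fold change of -0.57 (SE 0.13, limma, adjusted p = 0.00304). Psmd8, which joins the lid during the last step of its assembly, had 1608, 1701, 1388 and 1337 normalized counts in WT and 1128, 986, 1120.2 and 1099.6 in mdx5cv muscles. Here too all mdx5cv values were below all WT values, and Psmd8 fell by 0.47 (SE 0.11, limma, adjusted p = 0.00322). Psmd14, the deubiquitinase that cuts the chain from the substrate, had 472, 376, 447 and 411 normalized counts in WT and 361, 375, 331 and 316 in mdx5cv muscles. The lowest WT and the highest mdx5cv value nearly met, and the fall of 0.30 on the log2 scale (limma, adjusted p = 0.0433) was lost in 6 of 8 fits that left out a muscle.

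The other 5 lid genes were not called. Psmd11, whose product bridges the lid and the core, had 534, 430.0, 479.9 and 541 normalized counts in WT and 556, 578, 566 and 609 in mdx5cv muscles. Each mdx5cv value exceeded the highest WT value, with means of 496 ± 52.0 and 577 ± 22.9 (SD, n = 4), and the change of 0.22 had a 95% interval of -0.00026 to 0.45 (limma, adjusted p = 0.102). Psmd12 had 546, 242, 527 and 546 normalized counts in WT and 475, 524, 492 and 447 in mdx5cv muscles, with WT replicate 2 below all mdx5cv muscles and the remaining WT muscles above them. Psmd7, the partner of Psmd14 in the lid, had 440.1, 217, 369 and 464 normalized counts in WT and 359, 431, 366 and 314 in mdx5cv muscles, with the same muscle lowest. The log2 fold changes of Psmd12, Psmd7, Psmd3 and Psmd13 were 0.13, 0.03, 0.05 and -0.12, with 95% intervals of -0.34 to 0.60, -0.40 to 0.47, -0.26 to 0.36 and -0.35 to 0.12. Without WT replicate 2, the values were -0.16 for Psmd12, -0.21 for Psmd7 and -0.23 for Psmc5, and none was called.

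Levels of different genes were compared only per kb of exons, with the exons of a gene merged. Summed over the core, the level per kb was 4466, 5169.9, 4592 and 4545 in the WT muscles and 3519.8, 3553, 3634 and 3312 in the mdx5cv muscles, which was 74.7% of WT. Summed over the regulatory particle it was 4787, 4486, 4783 and 4891 in WT and 3988, 4198, 4137 and 3691 in mdx5cv muscles, which was 84.5% of WT. With the authors' size factors, the mdx5cv sums were below every WT sum in both particles. With equal totals the median log2 fold change of the regulatory particle was positive, and sums are not given for that setting. The ratio of the core to the regulatory sum was 0.933, 1.15, 0.960 and 0.929 in WT and 0.883, 0.846, 0.878 and 0.897 in mdx5cv muscles. The groups did not overlap in this ratio, and the highest was that of WT replicate 2. This ratio within a muscle does not depend on the scaling of the libraries. It was not computed after the loess correction for GC content and length. That correction moved the core median relative to all genes from -0.46 to -0.25, and the regulatory median from -0.17 to -0.13.

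Among single members, the highest level per kb in WT was that of Psmb6, at 581 ± 92.7, followed by the activator Psme4 at 571 ± 93.4 and the ATPase Psmc3 at 519.7 ± 35.5 (SD, n = 4), and these neighbors did not differ beyond their spread. In mdx5cv muscles the order was Psmc3 at 462 ± 36.7, Psme4 at 417 ± 48.4 and then Psmb5 at 406 ± 32.0, also within their spread. Psmb6, at 405 ± 14.4 in these muscles, was nearly equal to Psmb5. This order depended on the length used. Per kb of the longest transcript, Psmb6 was highest in both groups, at 1127 in WT and 785 in mdx5cv muscles, followed in WT by Psmd8 at 761 and Psmd6 at 759 and in mdx5cv muscles by Psmc3 at 662 and Psmd8 at 546. With that length and the authors' size factors, the core sum was 73.8% of WT and the regulatory sum 84.1%. Per kb of exons, the lowest of the core and regulatory particle genes tested in WT was Psmd11, at 77.8 ± 8.15. Per kb of the longest transcript, Psmd11 at 166.8 and Psmc2 at 167.1 were the lowest in WT and nearly equal.

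The alternative activators open the core without the regulatory particle. Psme4, the activator linked to histone degradation, had 5331, 5516, 4457 and 3837 normalized counts in WT and 3720.5, 3712, 3662 and 2889 in mdx5cv muscles. The groups did not overlap, and Psme4 fell by 0.45 on the log2 scale (SE 0.14, limma, adjusted p = 0.0183). Psme1, a subunit of the interferon-inducible activator, had 209.7, 219, 195 and 206 normalized counts in WT and 145, 188, 155 and 169 in mdx5cv muscles. It fell by 0.34 (limma, adjusted p = 0.0344), and this call was lost in 6 of 8 fits that left out a muscle. Its partner Psme2 was not called, with 129 ± 29.5 normalized counts in WT and 132 ± 7.04 in mdx5cv muscles (SD, n = 4) and a 95% interval of -0.28 to 0.38. Psme2b is a near-identical copy of Psme2 with few reads, so its change of 0.91 (95% interval 0.01 to 1.82) is uncertain. The nuclear activator Psme3 and the inhibitor Psmf1 had changes of -0.14 and -0.19 with 95% intervals of -0.35 to 0.07 and -0.49 to 0.11.

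The chaperones Psmd5, Psmd9 and Psmd10 hold the ATPases while the base is built, and none was called. Psmd10 had 47.0, 41.7, 45.3 and 50.8 normalized counts in WT and 61.1, 68.9, 47.7 and 74.3 in mdx5cv muscles, with mdx5cv replicate 3 inside the WT range. Its change was 0.42 (95% interval 0.04 to 0.81, limma, adjusted p = 0.0727). The changes of Psmd5 and Psmd9 were 0.02 and -0.13, with 95% intervals of -0.31 to 0.36 and -0.42 to 0.16. Psmc3ip had a change of -0.07 at a mean of about 10.5 normalized counts in WT.

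In contrast to the catalytic subunits of the core, their immunoproteasome counterparts were higher in mdx5cv muscles. Psmb8, the counterpart of Psmb5, rose by 1.26 on the log2 scale, Psmb9, the counterpart of Psmb6, by 1.23, and Psmb10, the counterpart of Psmb7, by 0.65 (limma, adjusted p = 0.000951, 0.00379 and 0.0129). As a percent of the constitutive partner per kb of exons, Psmb8 was at 2.37, 2.83, 2.49 and 1.77 in the WT muscles and 4.87, 7.20, 5.51 and 7.98 in the mdx5cv muscles. The ratio of Psmb9 to Psmb6 was 1.43, 0.712, 0.546 and 0.681 percent in WT and 2.24, 3.56, 2.86 and 2.41 percent in mdx5cv muscles. Psmb10 was at 10.2, 7.68, 7.15 and 8.09 percent of Psmb7 in WT and at 15.4, 17.1, 14.9 and 28.9 percent in mdx5cv muscles. No ratio overlapped between the groups, and the geometric means were 2.69-fold, 3.47-fold and 2.24-fold higher in mdx5cv muscles. Each difference had p = 0.0286 in a two-sided exact permutation test (n = 4 per group), which is the smallest p that 4 against 4 samples allow, and 0.0286 after Benjamini-Hochberg adjustment over the 3 pairs. A ratio within a muscle does not depend on the scaling of the libraries, but its level depends on the length used. Per kb of the longest transcript, the means in WT and mdx5cv muscles were 4.19 and 11.3 percent for Psmb8 over Psmb5, 0.551 and 1.81 percent for Psmb9 over Psmb6, and 8.97 and 20.7 percent for Psmb10 over Psmb7, with the same fold differences. In mdx5cv muscles the immunoproteasome transcripts were still a minority of each pair.

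**Figure D5:**
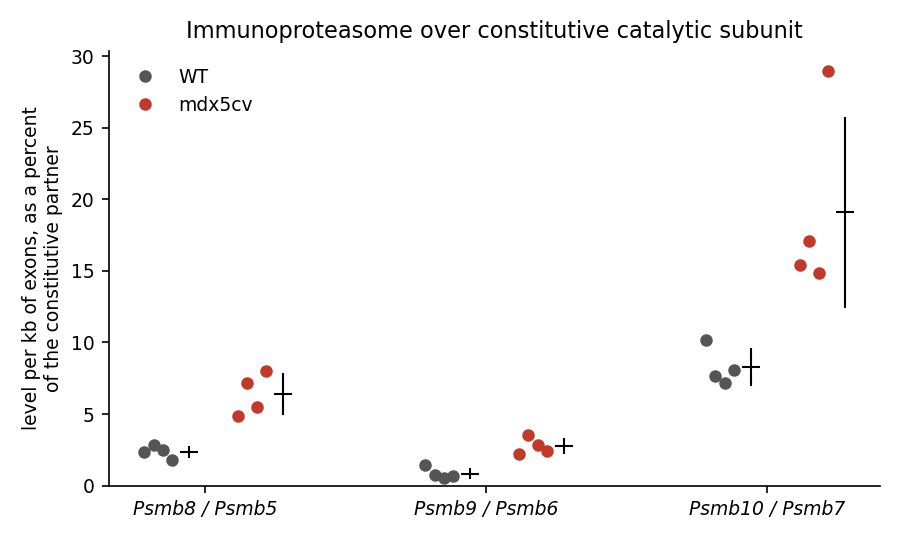
Level of each immunoproteasome subunit per kb of exons as a percent of its constitutive partner (linear axis from 0), with each point 1 muscle and the bars the mean and SD (n = 4, WT gray, mdx5cv red). All mdx5cv points lie above all WT points in each pair, and mdx5cv replicate 4 is the highest for Psmb10 over Psmb7, at 28.9 percent.

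Markers of other cells moved with the genotype in the same samples. All 6 macrophage genes were called higher, and their sum was 481 to 746 normalized counts in WT and 3565 to 8548 in mdx5cv muscles. The T or NK cell genes summed to 2.12 to 2.29 in WT, with Cd3e, Cd8a and Nkg7 at 0 in every WT muscle, and to 14.8 to 36.8 in mdx5cv muscles. All 5 of these genes were below a mean normalized count of 10, so none was tested. Of the 5 fibroblast genes 4 were called higher (sum 5196 to 7870.2 in WT, 17446 to 31390.0 in mdx5cv), as were all 6 genes of regenerating fibers (118 to 143 in WT, 2175 to 8502 in mdx5cv) and all 5 of proliferating cells (6.63 to 57.2 in WT, 360.2 to 1111 in mdx5cv). Of 6 fiber genes, Ckm and Tnnt3 were called lower, with 3 of 4 endothelial and all 3 erythrocyte genes. The part of these cells in the changes of the proteasome genes was not tested.

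Among listed genes that act with the proteasome, the shares called were close to those of all genes. Of 33 listed symbols, 32 were matched and 31 had enough reads to test, and 5 were called higher, beside 20.9% of all genes, 6 lower, beside 20.1%, and 20 not called. Besides the 3 immunoproteasome genes, the genes called higher were Nfe2l2, the factor of the antioxidant response, which rose by 0.41, and the ubiquitin shuttle gene Ubqln2, which rose by 0.52 (limma, adjusted p = 0.0117 and 0.0133). Nfe2l1, which drives proteasome genes when proteasome activity falls short, had 4186 ± 430.4 normalized counts in WT and 4352 ± 755 in mdx5cv muscles (SD, n = 4), with a 95% interval of -0.26 to 0.34 for its change. Its activating protease gene Ddi2 was not called at 0.25, and Ngly1, which removes its sugars, fell by 0.47 (limma, adjusted p = 0.00458).

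Among the shuttles that bring substrates to the proteasome, Rad23b and Ubqln4 fell by 0.48 and 0.70, and Ubxn1, a cofactor of the segregase Vcp, fell by 0.51. Of the 5 genes for chaperones of core assembly, Psmg2 fell by 0.52 and Psmg1, Psmg3, Psmg4 and Pomp were not called. Ecpas, which holds the regulatory particle on the core, fell by 0.54 (limma, adjusted p = 0.00193). The regulatory particle subunits Adrm1 and Sem1, which lie outside the symbol rule, each had a change of -0.27 and were not called (limma, adjusted p = 0.0954 and 0.0735). The activating enzyme genes Uba1 and Uba6 had changes of -0.02 and 0.02. These falls also depended on the scaling. With equal totals the calls of Ngly1, Rad23b, Ubxn1, Psmg2 and Ecpas were lost. Ubqln4 and the listed genes called higher kept their calls in that setting. With equal totals, 4 listed genes that had not been called gained a call without a change of sign. Nfe2l1, Ddi2, Pomp, Adrm1, Sem1 and Uba1, not called by the main limma test, were each called under some alternative.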

How the data were processed

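Bulk RNA-seq of TA muscles from 4 WT and 4 mdx5cv samples was analysed, grouped by their labels. The values that the authors deposited are a signal, the reads of a gene over the size factor of its library. The submitters' processing notes list FastQC, Trim Galore 0.6.4, STAR 2.6.0c, SAMtools 1.9, featureCounts, MultiQC 1.6, DESeq2 1.26.0, R 3.6.2 and mm10. The annotation release and the strand setting of the counting are not given in the sources used here, and exons of 12 members overlap exons of another gene. Whole reads were recovered from 100% of the values above 0, with a tolerance of 0.001, and the size factors matched median-of-ratios factors recomputed from them. The libraries held 13175524 to 14921057 reads. Genes whose mean normalized count reached 10 were tested, which were 13677.

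The test was that of limma 3.58.1 (R 4.3.3), two-sided and without covariates, with a variance trend on log2(normalized count + 1), and p-values were adjusted by Benjamini-Hochberg over all genes tested. Fold changes are on this scale, which understates those of low genes. A gene was called at an adjusted p under 0.05. Alternatives were pseudocounts of 0.1 and 10, no filter, 10 in every sample, TMM factors, equal totals, no variance trend, the quasi-likelihood test of edgeR 4.0.16 or DESeq2 1.42.0 on recovered reads, the replicate number as a block, each sample left out, and a minimum change of 1 on the log2 scale. Levels per kb of the longest transcript, equal totals without mitochondrial genes and a loess correction of each library for length and GC were added after the data were seen. Ratios of subunit pairs were compared by an exact permutation test. The scripts were tested on simulated data.

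Members, gene lists and motifs were chosen with earlier results of these data known. Some genes of the pathway list are not reported here and were left out of its counts. Values per sample are given for the catalytic subunits, Psmd14, Psmd1, Psmd2 and Psmd4 and the up to 3 largest called changes per class, and further members were named after their values were seen. Coordinates are those of GENCODE M21 (GRCm38), in which 55141 of 55401 gene IDs and all 43 members were found. Summaries, permutation tests and figures were made in Python 3.11.15 (pandas 2.3.3, numpy 2.4.6, matplotlib 3.10.9, scipy 1.17.1).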

Additional observations from a re-analysis of the deposited data

Results flagged for a closer look

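In 7 of 82 sets of 4 muscles tested (41 genes in each genotype), 1 muscle lay apart from the other 3 by Dixon's test on log2(normalized count + 1). Chance flags about 1 in 20 such sets, or 4.10 of 82, and WT replicate 2 held 4 of the 7. In WT replicate 2, Psma7 was at 9.75 (others 9.31 to 9.34) and the ubiquitin receptor Psmd4 was at 10.31 (others 9.95 to 9.97). The same muscle was low for Psma6, at 8.97 (others 9.29 to 9.35), and for the lid gene Psmd12, at 7.93 (others 9.05 to 9.09). Psmd1 was at 10.36 in WT replicate 1 (others 10.13 to 10.16). In mdx5cv muscles, Psme4 was at 11.50 in replicate 4 (others 11.84 to 11.86) and Psmf1 was at 6.77 in replicate 2 (others 7.19 to 7.22).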

How the results depend on the processing

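The counts of 19 members lower and 0 higher were found with both pseudocounts, the filter of 10 in every sample, TMM factors, edgeR and DESeq2. Lower calls were 17 without a filter and 16 without a variance trend. With equal totals 4 members were higher and 0 lower, with 0 core genes lower, 2 regulatory genes higher and 0 lower, and medians of -0.10 in the core and 0.19 in the regulatory particle. Among genes called with either scaling, the log2 fold changes of Psmc1 (0.060), Psmd14 (0.059) and Psme1 (0.014) turned positive with equal totals. So did those of Usp14 (0.32), Uba1 (0.34) and Nploc4 (0.35). Further members, called with neither scaling, also turned positive and are not listed. With equal totals 5444 of all genes were called higher and 820 lower (86.9% higher, against 51.0% with the authors' factors). With equal totals without mitochondrial genes 2 members were higher and 3 lower, 2 core genes were lower, 1 regulatory gene was higher and 1 lower, the medians were -0.24 and 0.041, and 74.7% of all calls were higher. With the loess correction 3 members were higher and 12 lower, 6 core genes were lower (median -0.25) and 1 regulatory gene was higher. The regulatory genes lower in that setting were Psmc6, Psmd4, Psmd6 and Psmd8, and the regulatory particle was at -0.13 relative to all genes. The scaling itself moved all genes in both settings of equal totals, and for the loess correction the cause was not tested. With a change of at least 1 on the log2 scale required, 0 members, 0 core genes and 0 regulatory genes were lower. Leaving out each muscle in turn gave 15 to 19 members lower and 0 to 1 higher, 10 to 11 core genes and 4 to 7 regulatory genes lower, and medians of -0.48 to -0.41 and -0.22 to -0.11. Of all 13677 genes, these fits called 2248 to 2625 lower and 2426 to 2853 higher. Psmd10 was called higher without mdx5cv replicate 3 and Psme2b without WT replicate 2. Calls were lost in 6 of 8 such fits for Psmd14 and Psme1, 4 for Psma6, 2 for Psmc1 and 1 for Psme4. Muscles with the same replicate number had correlations of 0.0501, 0.0309, 0.0722 and 0.146 between their deviations, so the numbers were not taken as pairs. With the replicate block 19 members were lower and 0 higher, Psmc4 gained a call and Psmd14 lost it.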
